A study of Mus musculus with 20 samples.

Results

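Mitosis and chromosome segregation genes were followed in mouse bone marrow as a module of 53 genes out of 20377 gene symbols in the count table. The module was written as a list of gene symbols, and the transcript row with the largest total count was taken for each symbol. It held 6 genes of mitotic entry, 7 of the kinetochore, 5 of the spindle checkpoint, 6 of anaphase and cohesion, 4 of the chromosomal passenger complex, 8 kinesins, 5 condensin genes, 3 of chromosome structure, 4 of the spindle and 5 of cytokinesis. All mice were male 129S4 animals, either Fancd2-/- or wild-type, and ate oxymetholone (an androgenic steroid, 300 mg/kg of diet) or placebo for 3 months from weaning, to an age of 4 months. KSL cells (cKit+ Sca1+ Lin-, the marrow fraction that holds haematopoietic stem and progenitor cells) were sorted in 2 rounds from pools of 5 mice. There were 3 KSL libraries in each of 4 groups, which were Fancd2-/- mice on oxymetholone, Fancd2-/- mice on placebo, wild-type mice on oxymetholone and wild-type mice on placebo. Erythroblasts (Ter119+ CD71high FSChigh) came from 1 wild-type mouse per library, with 3 libraries on oxymetholone and 3 on placebo. Whole bone marrow of placebo-fed mice was represented by 1 library of Fancd2-/- mice and 1 of wild-type mice, each a combined library of 5 mice. Fancd2-/- mice serve as a model of Fanconi anaemia, an inherited marrow failure syndrome.

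A dividing cell makes most of these transcripts in G2 and mitosis. Cyclin B with CDK1 starts mitosis, the kinetochore attaches each chromosome to spindle microtubules, and the checkpoint kinases hold the anaphase-promoting complex (APC/C) until every kinetochore is attached. The APC/C with its activator CDC20 then marks securin for destruction, which frees separase to cut cohesin, and the midzone kinesins and cytokinesis proteins divide the cytoplasm. Many of the genes are known to be driven in late cell cycle by the DREAM complex, B-MYB and FOXM1 through the cell cycle homology region (CHR, TTTGAA or less often TTCGAA) and CCAAT boxes. Most haematopoietic stem cells are quiescent, whereas erythroblasts divide rapidly. In bulk libraries such as these, fewer cycling cells and less RNA of the gene per cycling cell cannot be told apart.

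The promoters of 4 members show how these motifs lie. Cenpa is shown because its rise with Fancd2 loss was called in each fit with 1 library left out, Ube2c because its change was the largest of the module, Bub1b because it holds both forms of the CHR, and D2Ertd750e (Knstrn) because it rose without any of the motifs. Each sequence runs from 250 bases before to 50 bases after the RefSeq start in GRCm38.p6, 5′ to 3′ on the gene's strand, and capitals mark the CHR (either form) or a CCAAT box on either strand. The reverse of TTTGAA reads TTCAAA, and the reverse of CCAAT reads ATTGG. The windows are chr5:30666636-30666935 for Cenpa, chr2:164769679-164769978 for Ube2c, chr2:118597961-118598260 for Bub1b and chr2:118813753-118814052 for D2Ertd750e, all on the plus strand.
Cenpa: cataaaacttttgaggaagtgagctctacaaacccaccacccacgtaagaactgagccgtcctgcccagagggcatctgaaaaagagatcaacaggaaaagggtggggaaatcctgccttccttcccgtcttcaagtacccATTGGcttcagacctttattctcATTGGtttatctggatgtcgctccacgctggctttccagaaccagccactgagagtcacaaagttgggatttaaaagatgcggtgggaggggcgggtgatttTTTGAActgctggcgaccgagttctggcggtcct
Ube2c: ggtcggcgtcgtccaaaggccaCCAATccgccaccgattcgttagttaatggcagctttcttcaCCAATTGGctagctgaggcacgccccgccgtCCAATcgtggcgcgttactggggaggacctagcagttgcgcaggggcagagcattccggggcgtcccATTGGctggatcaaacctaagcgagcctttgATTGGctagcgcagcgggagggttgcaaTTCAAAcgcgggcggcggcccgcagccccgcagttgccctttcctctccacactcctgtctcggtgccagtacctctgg
Bub1b: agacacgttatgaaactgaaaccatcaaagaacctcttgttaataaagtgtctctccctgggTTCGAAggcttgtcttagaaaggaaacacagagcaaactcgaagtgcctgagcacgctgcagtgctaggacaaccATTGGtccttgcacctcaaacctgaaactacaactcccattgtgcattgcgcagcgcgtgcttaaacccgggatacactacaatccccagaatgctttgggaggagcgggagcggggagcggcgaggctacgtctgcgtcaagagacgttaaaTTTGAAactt
D2Ertd750e: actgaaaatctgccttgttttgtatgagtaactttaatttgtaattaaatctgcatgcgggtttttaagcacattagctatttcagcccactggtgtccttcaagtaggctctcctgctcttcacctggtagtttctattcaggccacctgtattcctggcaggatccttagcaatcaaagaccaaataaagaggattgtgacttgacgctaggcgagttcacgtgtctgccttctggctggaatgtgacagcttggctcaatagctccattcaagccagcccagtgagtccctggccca
Cenpa had its single CHR 17 bases after the start and reverse CCAAT boxes 86 and 109 bases before it. Ube2c had a reverse CHR 29 bases before the start, and in one place its forward and reverse CCAAT matches overlapped. Bub1b carried TTTGAA 41 bases after the start and TTCGAA 188 bases before it.

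RefSeq promoters were matched for 46 of the 53 members, and Cdc25c, Aurkb, Incenp, Kif20a, Smc4, Cdca2 and Tpx2 had no entry. TTTGAA or TTCGAA on either strand occurred in 36 of these 46 members (78.3%), against 19.2% of all 32851 promoters of the table. CCAAT occurred in 33 (71.7%), against 37.4% of all promoters, and CHR and CCAAT together in 30 (65.2%), against 7.52%. These shares count genes for the members and single promoters for the table. Counted by gene, 16.4% of the 9422 tested genes with a promoter held TTTGAA or TTCGAA, 42.7% held CCAAT and 6.8% both. Of the 47 CHR matches in members, 37 (78.7%) began between 100 bases before and 50 bases after the start, a stretch that held 41.4% of the 7260 matches in all promoters. The E2F forms TTTCCCGC, TTTGGCGC and TTTCGCGC, searched on both strands, occurred in 2 of the 46 members (4.35%), against 1.84% of all promoters. The 10 matched members without a CHR were Birc5, Cenpe, Cks2, D2Ertd750e, Mad2l1, Ncaph, Nuf2, Nusap1, Pttg1 and Sgol2. Their median log2 change with Fancd2 loss on placebo was 0.66, beside 0.60 in the 36 members with one, and no difference between them was tested. These counts describe letters in a window and not binding.

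The count table held 10.8 to 121 M reads per KSL library, 17.2 to 20.8 M per erythroblast library, and 107 M in Fancd2-/- and 100.2 M in wild-type whole marrow, over 1 row per symbol. Levels are given as CPM, read counts scaled by library size with TMM factors over all 20 libraries. Fancd2 was at 4.65 to 6.15 CPM in the 6 Fancd2-/- KSL libraries and at 12.1 to 16.5 CPM in the 6 wild-type ones, as the labels say. Kit was at 210 to 562 CPM in KSL libraries and at most 1.35 CPM in erythroblasts. Fancd2-/- placebo replicate 3 stood apart: its log2 levels fell by 0.182 per doubling of transcript length over 13156 genes, whereas the slopes of the other 11 KSL libraries lay between -0.039 and 0.090. For Fancd2 loss on placebo, the number of members called in the main fit and their median are given with and without it. For oxymetholone in Fancd2-/- cells and the interaction, the module median is given with and without the pair that holds it. Counts by other tools, at unadjusted p, of groups that did not overlap, of genes outside the module and over pairs are given only with it.

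All 53 genes were detected in every KSL library. Per kilobase of transcript and averaged over the 12 KSL libraries, Birc5 (survivin, of the chromosomal passenger complex) was the highest at 80.7 CPM per kb, followed by Ube2c at 73.1 and Top2a at 70.0 CPM per kb. Kifc1, a minus-end kinesin, was the lowest at 0.903 CPM per kb, and the next lowest was the kinetochore scaffold Casc5 at 2.70 CPM per kb. Casc5, Sgol2, Cenpe and Cenpf, all with transcripts over 4 kb, were next to one another at the low end. For a single gene the highest KSL library stood 1.57 to 3.89 times above the lowest, with a median ratio of 2.21.

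**Figure D1:**
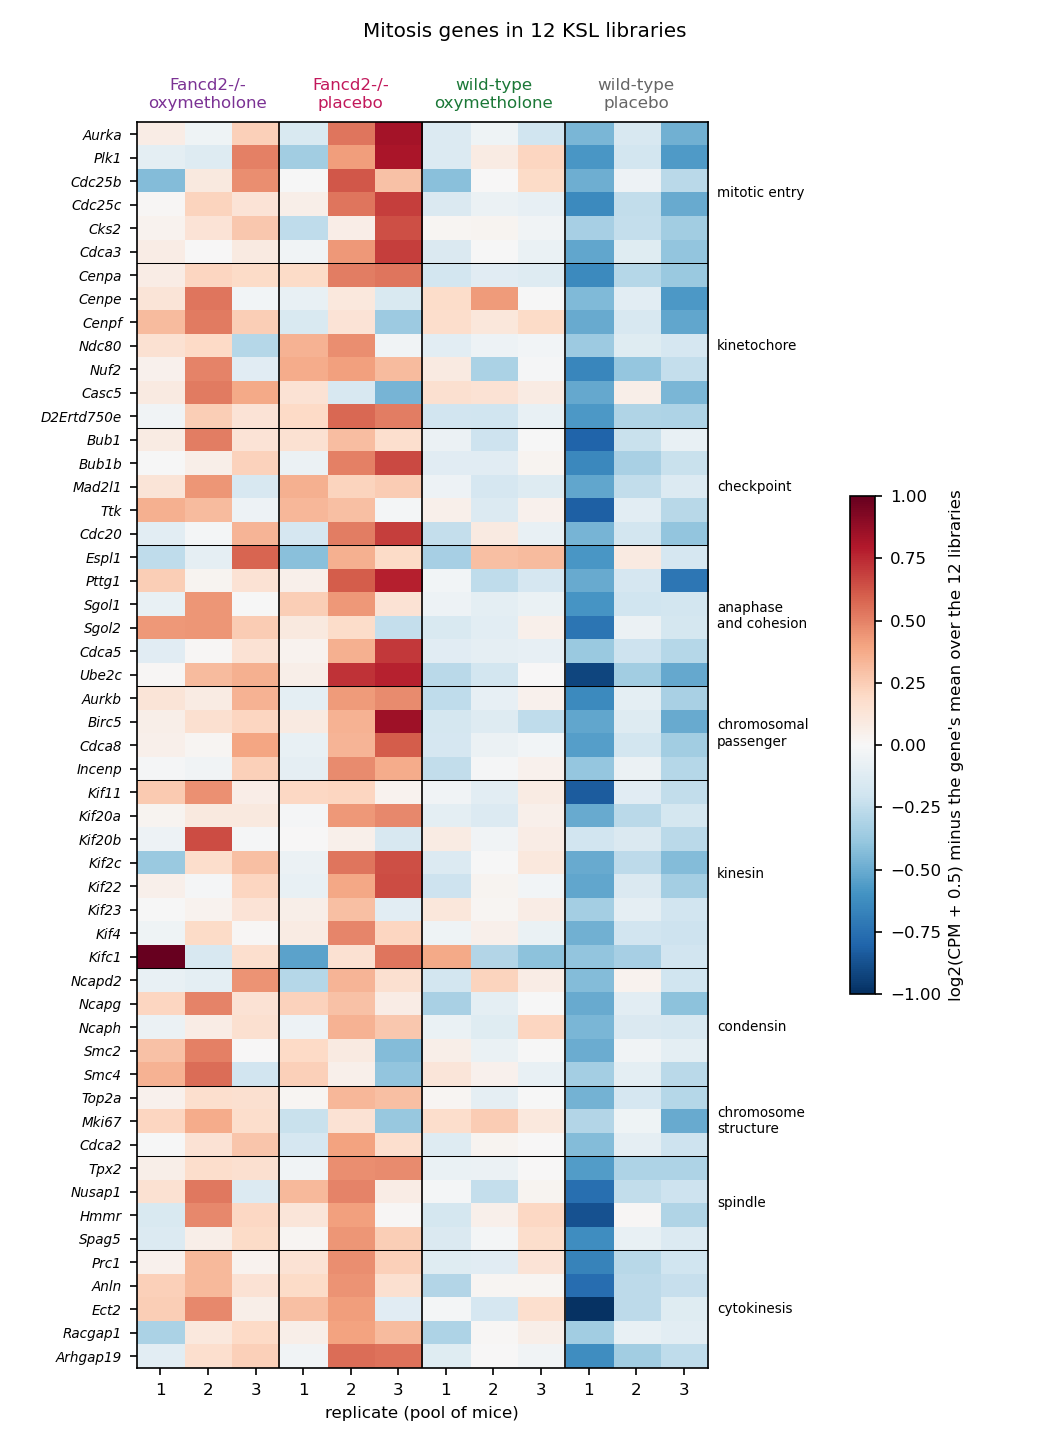
Deviation of log2(CPM + 0.5) from each gene's mean over the 12 KSL libraries, in log2 units (colour, limited to -1 and 1), for 53 genes in rows by subgroup and 12 libraries in columns by group. All 53 genes of wild-type placebo replicate 1 and replicate 3 lie below their means, and 52 genes of Fancd2-/- placebo replicate 2 lie above.

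Seen library by library, the module moved largely as a block. The median deviation of the 53 genes from their means over the 12 KSL libraries was highest in Fancd2-/- placebo replicate 2, at 0.41 on the log2 scale, and lowest in wild-type placebo replicate 1, at -0.52. The Fancd2-/- placebo libraries had medians of 0.04, 0.41 and 0.27, against -0.52, -0.16 and -0.27 in wild-type placebo libraries. The Fancd2-/- oxymetholone libraries had medians of 0.05, 0.18 and 0.16, against -0.11, -0.05 and 0.00 in wild-type oxymetholone libraries. The genotypes did not overlap within either diet, and the placebo libraries of each genotype were more spread out than those on oxymetholone. The median over all 13156 genes lay between -0.068 and 0.039 in each of these libraries.

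Fancd2 loss on placebo raised part of the module in KSL cells. Of the 53 genes, 17 rose and 0 fell at an adjusted p under 0.05 in edgeR's quasi-likelihood test with Benjamini-Hochberg adjustment over 13259 genes, of which 0.505% rose, 0.777% fell and 1.28% changed in either direction. At an unadjusted p under 0.05 there were 42 of the 53, against 19.6% of all genes. The median log2 change of the 53 genes was 0.615, and 53 of 53 were above 0, beside a median of -0.01 and 48.4% above 0 over all genes tested. In 36 of the 53 genes each Fancd2-/- placebo library was above each wild-type placebo library, which was so for 9.76% of all genes. Without Fancd2-/- placebo replicate 3 the median was 0.57 and 53 of 53 were above 0, but 4 genes remained called, namely Cenpa, D2Ertd750e, Ube2c and Cdc25c, beside 0.568% of all genes. The other 13 then had estimates of 0.504 to 0.834 and edgeR adjusted p-values of 0.058 to 0.1, and were no longer called.

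The number of calls changed when single libraries were left out, in the module and in the whole table. With 1 library left out, 25 of the 53 genes were called without Fancd2-/- placebo replicate 1 (236 of all 13483 genes). There were 2 without its replicate 2 (0.253%) and, as given above, 4 without its replicate 3. Without wild-type placebo replicate 1 the count was 1 (0.142% of all genes), without replicate 2 it was 5 (0.223%) and without replicate 3 it was 2 (0.23%). The estimates of 53 of 53 genes stayed above 0 in 5 of these 6 fits, and 52 of 53 did without Fancd2-/- placebo replicate 1, where Casc5 was at -0.00444. Cenpa was the gene called in 6 of these 6 fits, with a largest adjusted p of 0.0498, and D2Ertd750e was called in 5 of them. DESeq2 called 37 of the 53 genes and limma voom 40, in both cases higher, but they also called more of the whole table, 815 genes (6.15%) and 1418 genes (10.7%). An edgeR fit of the 6 placebo libraries alone called 0 of the 53, with 11 calls over all 12974 genes then tested.

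The kinetochore gave the smallest p-values. Cenpa (NM_007681, chr5:30969275-30977199, mm9), the histone H3 variant that marks centromeres, was at 80.8, 101 and 102 CPM in Fancd2-/- placebo libraries, against 45.1, 57.8 and 54.3 CPM in wild-type placebo libraries. On oxymetholone it was at 74.2, 82.1 and 80.7 CPM in Fancd2-/- libraries, against 62.2, 65.0 and 64.4 CPM in wild-type libraries. The genotypes thus stayed apart on both diets, and the placebo difference was 0.88 ± 0.13 (log2 ± SE, n = 3 libraries each, edgeR adjusted p = 0.00741). D2Ertd750e (Knstrn, a kinetochore and spindle protein known from human cells) was at 82.8, 107.7 and 103 CPM in Fancd2-/- placebo libraries, against 48.2, 58.2 and 58.1 CPM in wild-type placebo libraries. Its groups did not overlap, and the change was 0.86 ± 0.13 (edgeR adjusted p = 0.011). Nuf2, a subunit of the NDC80 complex that grips microtubules, was at 49.4, 50.9 and 47.6 CPM in Fancd2-/- placebo libraries, against 24.1, 29.1 and 32.2 CPM in wild-type placebo libraries. Fancd2-/- replicates of Nuf2 were close to one another, and the change was 0.82 ± 0.17 (edgeR adjusted p = 0.0391). The large outer kinetochore proteins did not pass the test, with changes of 0.29 for Cenpf, 0.35 for Cenpe and 0.15 for Casc5, and Ndc80 at 0.52 did not either.

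Among the anaphase genes Ube2c stood highest in fold. Ube2c (NM_026785, chr2:164595429-164598402, mm9), the ubiquitin-conjugating enzyme of the APC/C, was at 69.7, 111 and 114 CPM in Fancd2-/- placebo libraries, against 35.2, 52.4 and 46.8 CPM in wild-type placebo libraries. Its groups did not overlap, and the change of 1.16 ± 0.20 (edgeR adjusted p = 0.014) was the largest estimate of the 53. Pttg1, which encodes securin, was at 28.4, 41.8 and 47.1 CPM in Fancd2-/- placebo libraries, against 19.1, 24.2 and 16.3 CPM in wild-type placebo libraries, a change of 0.998 ± 0.185 (edgeR adjusted p = 0.0218). Its groups did not overlap, and Fancd2-/- replicate 1 lay closest to the wild-type libraries. Cdca5 (sororin, which protects cohesin) also rose, by 0.71 on the log2 scale with an edgeR adjusted p of 0.0422. Separase itself (Espl1, 0.30) and the shugoshins that guard centromeric cohesin (Sgol1, 0.63, and Sgol2, 0.35) did not pass the test.

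The checkpoint and passenger genes had 1 call each. Bub1b (BubR1, which binds and inhibits APC/C with CDC20) was at 93.5, 138 and 154 CPM in Fancd2-/- placebo libraries, against 62.1, 77.8 and 83.4 CPM in wild-type placebo libraries, a change of 0.82 ± 0.17 (edgeR adjusted p = 0.0388). Cdc20 was at 77.4, 124 and 141 CPM in Fancd2-/- placebo libraries, against 62.8, 76.5 and 66.0 CPM in wild-type placebo libraries, and its estimate of 0.77 ± 0.20 did not pass (edgeR adjusted p = 0.0714). Its groups did not overlap, but replicate 1 of Fancd2-/- placebo was within 1 CPM of the highest wild-type library. Birc5 was at 78.6, 94.1 and 133 CPM in Fancd2-/- placebo libraries, against 51.4, 67.5 and 52.0 CPM in wild-type placebo libraries, a change of 0.87 ± 0.18 (edgeR adjusted p = 0.035). Replicate 3, the library with the steep length slope, was the highest for this short transcript of 947 bases, and without it the change was 0.61 with an edgeR adjusted p of 0.058. Aurkb, Cdca8 and Incenp, the partners of Birc5 in the passenger complex, had estimates of 0.66, 0.70 and 0.54 and were not called.

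In mitotic entry the median of the 6 genes was 0.80, the highest of the 10 subgroups, with 2 calls. Without Fancd2-/- placebo replicate 3 it was 0.59, and cytokinesis was then highest at 0.73. Cdc25c, a phosphatase that activates CDK1, was at 18.1, 25.3 and 28.3 CPM in Fancd2-/- placebo libraries, against 10.98, 14.6 and 12.1 CPM in wild-type placebo libraries, a change of 0.96 ± 0.17 (edgeR adjusted p = 0.0187). Cdca3, known as a trigger of mitotic entry, was at 89.8, 124 and 149 CPM in Fancd2-/- placebo libraries, against 64.1, 84.5 and 70.0 CPM in wild-type placebo libraries, a change of 0.76 ± 0.165 (edgeR adjusted p = 0.0438). For both genes the groups did not overlap and Fancd2-/- replicate 1 was the lowest of its group. The kinases Aurka and Plk1 had similar estimates, 0.86 ± 0.20 and 0.85 ± 0.26, but were not called.

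Of the spindle genes, Tpx2, which activates Aurora A on microtubules, was at 112, 159.6 and 159.7 CPM in Fancd2-/- placebo libraries, against 77.9, 93.1 and 93.1 CPM in wild-type placebo libraries. The change was 0.73 ± 0.14 (edgeR adjusted p = 0.0244) and the groups did not overlap. Nusap1, a microtubule bundler whose locus overlaps Oip5, was at 117, 132 and 97.9 CPM in Fancd2-/- placebo libraries, against 55.1, 78.7 and 80.5 CPM in wild-type placebo libraries, with an estimate of 0.71 ± 0.19 (edgeR adjusted p = 0.075). In cytokinesis 3 of 5 genes rose: Arhgap19, Prc1 and Anln. Arhgap19, a GTPase-activating protein, was at 26.4, 40.2 and 39.7 CPM in Fancd2-/- placebo libraries, against 17.4, 21.2 and 22.6 CPM in wild-type placebo libraries, a change of 0.83 ± 0.17 (edgeR adjusted p = 0.0359). Racgap1, the centralspindlin subunit, was at 89.6, 113.5 and 107 CPM in Fancd2-/- placebo libraries, against 67.2, 81.4 and 79.5 CPM in wild-type placebo libraries, and its 0.47 ± 0.16 was not called (edgeR adjusted p = 0.137) although its groups did not overlap.

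Of the 8 kinesins, Kif20a (0.66) and Kif4 (0.59) rose, and Kif20a overlaps Cdc23 in the genome, so part of its reads may belong to that gene. Kif22, a chromokinesin, was at 59.0, 81.4 and 98.0 CPM in Fancd2-/- placebo libraries, against 43.1, 56.0 and 48.9 CPM in wild-type placebo libraries, with an estimate of 0.72 ± 0.17 (edgeR adjusted p = 0.0597). Kif2c, which depolymerises microtubules at centromeres, had an estimate of 0.84 and was also short of a call. Kifc1 was at 1.198 to 4.66 CPM in KSL cells and its estimate of 0.59 had an SE of 0.42. Chromosome structure held Top2a (topoisomerase II alpha), at 367, 454 and 444.5 CPM in Fancd2-/- placebo libraries, against 259.7, 321 and 296 CPM in wild-type placebo libraries, a change of 0.56 ± 0.12 (edgeR adjusted p = 0.0438). Mki67, the gene of the proliferation marker Ki-67, had an estimate of 0.15 ± 0.14 and its groups overlapped.

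Condensin, which compacts chromosomes, had the lowest median of the subgroups, 0.31 (0.40 without Fancd2-/- placebo replicate 3), with 0 of 5 genes called by edgeR and 2 at an unadjusted p under 0.05. DESeq2 and limma voom each called Ncapg and Ncaph of these 5 genes. Smc4, its core ATPase, was at 182, 159.7 and 117 CPM in Fancd2-/- placebo libraries, against 122, 144 and 128 CPM in wild-type placebo libraries, so the groups overlapped and replicate 3 was the lowest of all. The estimates were 0.19 for Smc2, 0.24 for Smc4, 0.31 for Ncapd2, 0.48 for Ncaph and 0.56 for Ncapg, which overlaps Lcorl.

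**Figure D2:**
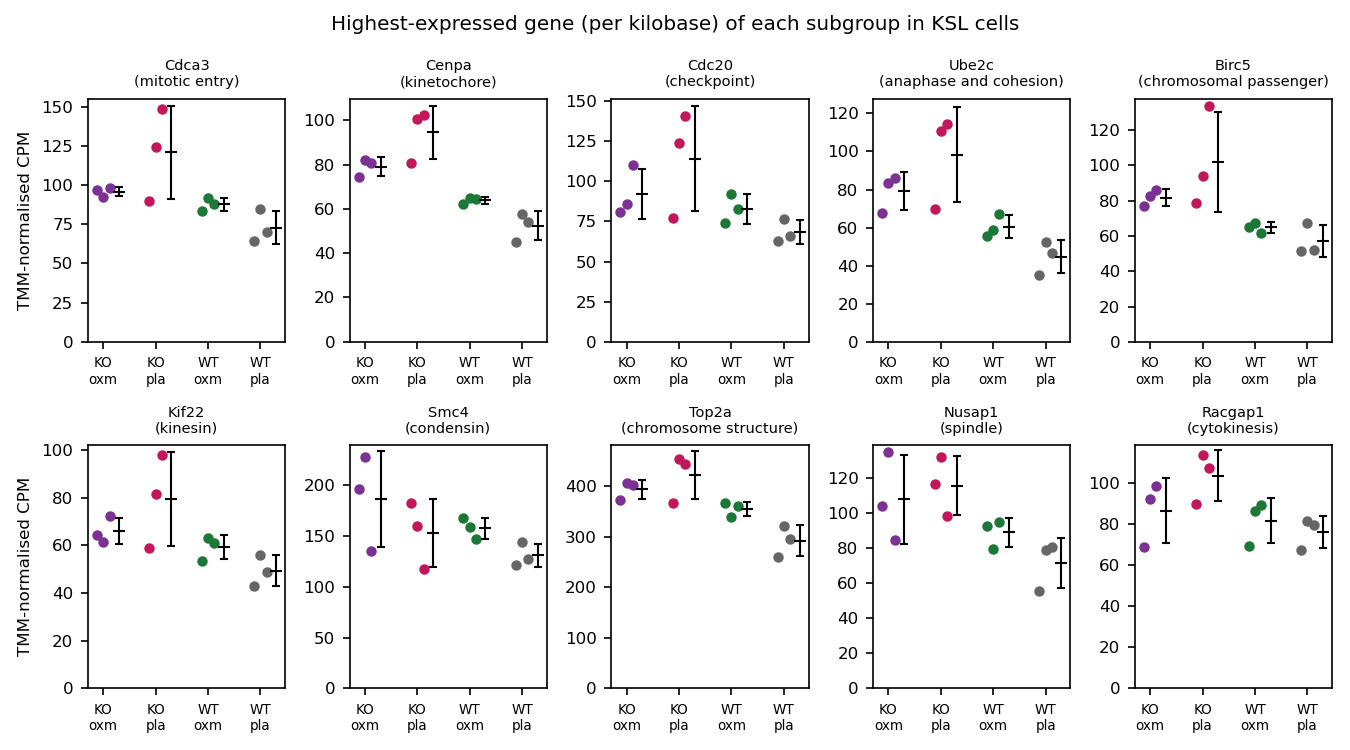
TMM-normalised CPM in the 12 KSL libraries for the gene of each subgroup with the highest level per kilobase; KO is Fancd2-/-, WT wild-type, oxm oxymetholone and pla placebo, dots are libraries and bars the mean ± SD of 3. Cenpa sits at 80.8 to 102 CPM in Fancd2-/- placebo libraries and at 45.1 to 57.8 CPM in wild-type placebo libraries, whereas these groups overlap for Smc4.

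Other genes of mitosis outside the module moved in the same comparison. Of 78 such genes, 12 rose and 0 fell, with a median log2 change of 0.36. The cyclins of CDK1 were among them, with Ccnb2 at 0.91 ± 0.13 (edgeR adjusted p = 0.00602) and Ccnb1 at 1.07 ± 0.17 (edgeR adjusted p = 0.0109), as were Cdk1 itself (0.87), the centrosomal kinase Nek2 (0.86) and the spindle protein Tacc3 (0.62). Of 48 DNA replication genes, which act in S phase, 1 rose (Rrm2, a ribonucleotide reductase subunit, 0.66 ± 0.13, edgeR adjusted p = 0.0257). The median of the 48 was 0.38 with 48 of 48 above 0, and the difference between these lists was not tested.

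Cell type markers differed between the same libraries. The summed level of 10 genes that define KSL cells was 2169 to 2876 CPM in Fancd2-/- placebo libraries and 3121 to 3449 CPM in wild-type placebo libraries, with 0 of the 10 at 0 in each of them, and Kit alone was at 210 to 368 CPM against 427 to 562 CPM. Summed T and NK cell markers were at 113 to 176 CPM in Fancd2-/- placebo and 78.0 to 109.8 CPM in wild-type placebo libraries. Of these 8 markers only 2 passed the expression filter in KSL libraries. Mast cell and basophil markers were at 11.8 to 16.9 CPM against 6.71 to 7.96 CPM. Megakaryocyte markers were lower in Fancd2-/- placebo libraries, at 74.8 to 75.2 CPM against 87.9 to 97.4 CPM. Sums of neutrophil granule, B cell, and monocyte and macrophage markers overlapped between the genotypes. Fibroblast and stromal markers reached 81.9 CPM in Fancd2-/- placebo replicate 3 and lay between 19.4 and 28.3 CPM in the other 11 KSL libraries. Erythroid markers, from the cell type richest in these transcripts, summed to 643 to 1306 CPM in Fancd2-/- placebo libraries and 824 to 1119 CPM in wild-type placebo libraries, and the groups overlapped. Single defining markers were at 0 in part of these libraries: Cd3e in 2 of 3 Fancd2-/- placebo and 3 of 3 wild-type placebo libraries, and the mast cell gene Ms4a2 in 2 of 3 and 1 of 3. The part of these cells in the higher mitotic levels was not tested.

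On oxymetholone the genotypes were closer. By edgeR 0 of the 53 genes were called, while 0.128% of all genes were, and DESeq2 and limma voom also called 0. At an unadjusted p under 0.05 there were 4 of the 53, against 5.57% of all genes. The median log2 change of the Fancd2-/- against the wild-type libraries was 0.19 and 52 of 53 genes were above 0, beside a median of 0.01 over all genes. The smallest p-values belonged to Ncapg (0.44 ± 0.15, edgeR adjusted p = 0.556), Sgol2 (0.47 ± 0.18, edgeR adjusted p = 0.746) and Cenpa (0.31 ± 0.13, edgeR adjusted p = 0.782). Kif23, the midzone kinesin MKLP1, was the 1 gene below 0, at -0.00 ± 0.12, and it turned to small positive values under several other settings. In 18 of the 53 genes the Fancd2-/- oxymetholone libraries did not overlap the wild-type oxymetholone libraries and were higher, against 5.02% of all genes. Ncapg was at 46.2, 56.2 and 43.9 CPM in Fancd2-/- oxymetholone libraries, against 31.7, 37.1 and 39.5 CPM in wild-type oxymetholone libraries, with no overlap. Markers that define KSL cells did not overlap on this diet either. They summed to 2591 to 2791 CPM in Fancd2-/- and 3164 to 3265 CPM in wild-type libraries. Kit alone was at 340 to 392 CPM against 453 to 522 CPM. Sums of each other marker list overlapped, and the part of these cells was not tested.

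Oxymetholone was compared with placebo within pairs of KSL libraries that shared a flow cytometer setting, 3 pairs per genotype. In wild-type mice the 53 genes leaned upwards on oxymetholone, but 0 were called by edgeR, as were 0 of all 13259 genes. The median log2 change was 0.29 and 53 of 53 genes were above 0, beside a median of -0.00 over all genes, and 31 of the 53 had an unadjusted p under 0.05, as had 2.68% of all genes. DESeq2 called 0 of the 53 genes, and limma voom with sample quality weights called 3, beside 91 of 13259 genes (0.686%), which were Cenpe (adjusted p = 0.00715), Mki67 (adjusted p = 0.0117) and Cenpf (adjusted p = 0.0256). The pair medians were 0.46, 0.11 and 0.31, and 48 of 53 genes were higher in 3 of 3 pairs, against 12.2% of all genes. The exceptions were Ttk, Pttg1, Sgol2, Kifc1 and Smc2. Marker sums differed between the diets too. Mast cell and basophil markers summed to 7.98 to 15.9 CPM on oxymetholone and 6.71 to 7.96 CPM on placebo, with 6 of 6 tested markers above 0, and neutrophil granule markers to 1087 to 1331 CPM against 772.5 to 997 CPM, although 7 of 11 of these were below 0 in the fit. Erythroid sums overlapped, at 863 to 943 CPM on oxymetholone and 824 to 1119 CPM on placebo, with 12 of 14 tested markers below 0. Their part in the module's lean was not tested. This comparison and that of Fancd2 loss on placebo share the 3 wild-type placebo libraries, of which replicate 1 was the lowest of the 12 for the module. The titles of that library and of Fancd2-/- placebo replicate 3 begin with QZ, unlike those of the other KSL libraries. What this prefix stands for is not given, and their oxymetholone partners carry another, so prefix and diet cannot be told apart within these pairs.

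The genes with the smallest p in wild-type mice were long ones with roles at the kinetochore and on chromosomes. Cenpe, a kinesin that carries chromosomes to the metaphase plate, was at 26.0, 30.9 and 22.8 CPM in wild-type oxymetholone libraries, against 16.7, 21.3 and 15.2 CPM in wild-type placebo libraries, a log2 difference of 0.60 ± 0.125 (edgeR adjusted p = 0.999). Cenpf was at 47.6, 45.4 and 48.0 CPM in wild-type oxymetholone libraries, against 29.5, 37.5 and 29.1 CPM in wild-type placebo libraries, a difference of 0.57 ± 0.12 (edgeR adjusted p = 0.999). Mki67 was at 182, 193 and 174 CPM in wild-type oxymetholone libraries, against 132, 157 and 114 CPM in wild-type placebo libraries, a difference of 0.47 ± 0.11 (edgeR adjusted p = 0.999). For these 3 genes the diets did not overlap, as for 27 of the 53 genes and 3.25% of all genes. Condensin genes, at a median of 0.25, and chromosomal passenger genes, at 0.24, had the lowest subgroup medians, and kinetochore genes the highest, at 0.36.

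In Fancd2-/- mice the members lay on both sides of 0. By edgeR 0 of the 53 genes and 0 of all genes were called, 18 of the 53 had an unadjusted p under 0.05 beside 6.81% of all genes, and DESeq2 and limma voom also called 0 of the 53. The median log2 change was -0.15, with 15 genes (28.3%) above and 38 below 0, beside 48.2% of all genes above 0. Without pair 3 the median was -0.0884, with 16 genes above and 37 below 0. With the length trend of each library removed it was -0.171, with 12 genes above and 41 below 0. The 3 Fancd2-/- placebo libraries serve here as the baseline and in the comparison of genotypes on placebo as the Fancd2-/- group. Marker sums overlapped between the diets for each list. In the fit 8 of 11 neutrophil granule markers (median -1.06) and 8 of 8 tested B cell markers were below 0. Above 0 were 7 of 10 KSL defining markers and 6 of 7 tested megakaryocyte markers. The part of such cells in the module's values was not tested. The pair medians were 0.02, -0.28 and -0.15. In 3 of 3 pairs 7 genes (13.2%) were higher on oxymetholone, against 8.75% of all genes. They were Cenpe, Cenpf, Sgol2, Kif11, Smc2, Smc4 and Mki67, with transcripts of 3983 to 11093 bases. The 14 genes lower in 3 of 3 pairs (26.4%, against 12.1% of all genes) had transcripts of 947 to 5137 bases.

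The 3 highest-ranked genes in the upward direction were Cenpf, Mki67 and Casc5. Cenpf was at 52.4, 60.5 and 49.8 CPM in Fancd2-/- oxymetholone libraries, against 37.6, 46.1 and 32.5 CPM in Fancd2-/- placebo libraries, a difference of 0.49 ± 0.12 (edgeR adjusted p = 0.688). Mki67 was at 187, 209.5 and 183 CPM in Fancd2-/- oxymetholone libraries, against 138, 178 and 124 CPM in Fancd2-/- placebo libraries, a difference of 0.40 ± 0.11 (edgeR adjusted p = 0.688). Casc5 was at 18.3, 24.9 and 22.5 CPM in Fancd2-/- oxymetholone libraries, against 19.1, 15.3 and 12.3 CPM in Fancd2-/- placebo libraries, a difference of 0.51 ± 0.18 (edgeR adjusted p = 0.688). For Cenpf and Mki67 the diets did not overlap, as for 3 of the 53 genes (the other was Sgol2) and 2.99% of all genes, and for Casc5 replicate 1 went slightly the other way. Downwards the first were Cdca5 (-0.37 ± 0.12), Kif2c (-0.35 ± 0.11) and D2Ertd750e (-0.32 ± 0.11), each with an edgeR adjusted p of 0.688 and each lower in 3 of 3 pairs. Without pair 3 these 3 were at -0.23, -0.31 and -0.255, and Cenpf, Mki67 and Casc5 at 0.46, 0.36 and 0.36. Kif2c was at 26.4, 38.9 and 42.4 CPM in Fancd2-/- oxymetholone libraries, against 33.0, 49.9 and 53.9 CPM in Fancd2-/- placebo libraries, so the diets overlapped although each pair was lower. Kifc1 in Fancd2-/- oxymetholone replicate 1 reached 4.66 CPM, against 1.198 CPM in its placebo partner, which was the largest ratio of a single pair (1.60 on the log2 scale) and was not seen in the other pairs.

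**Figure D3:**
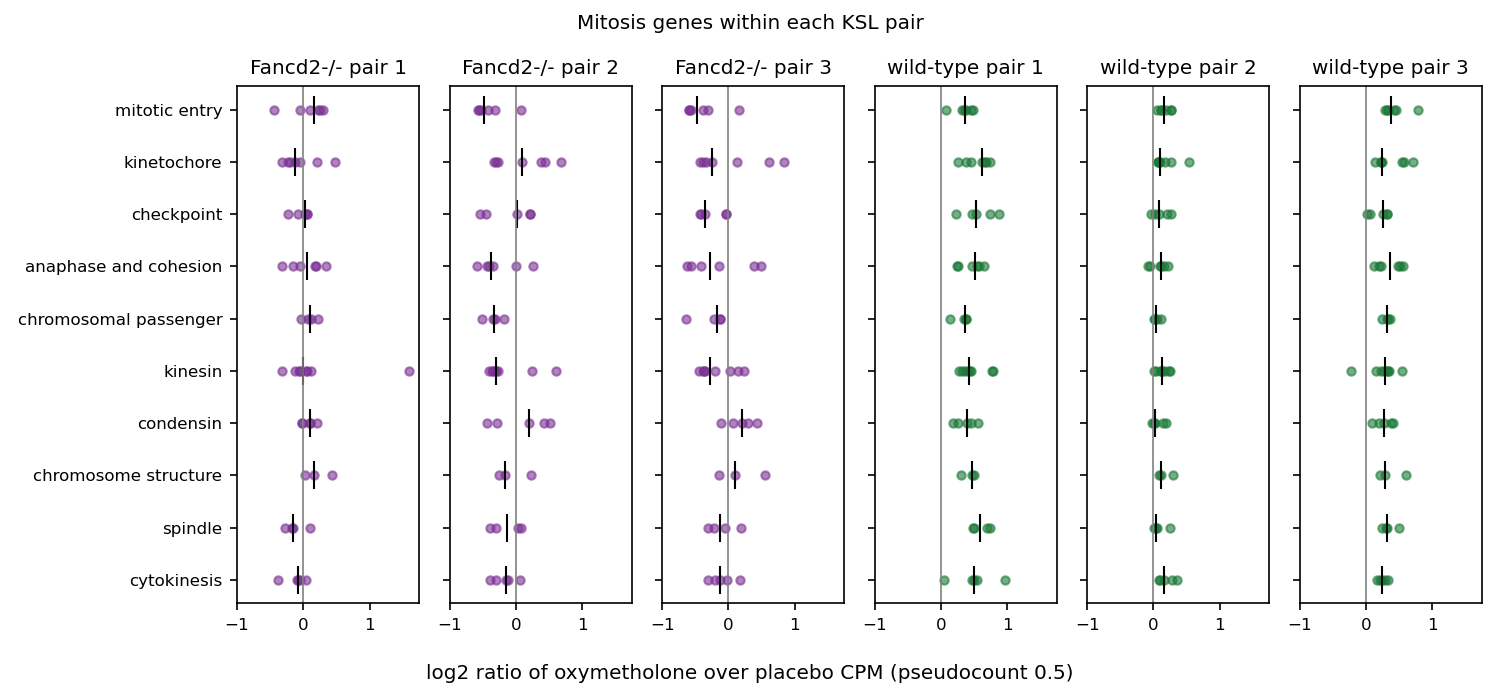
Log2 ratio of oxymetholone over placebo CPM (pseudocount 0.5) within each of the 6 KSL pairs, for 53 genes by subgroup; dots are genes and black ticks subgroup medians. The 53 genes lie above 0 in wild-type pair 1, and 34 and 36 of them lie below 0 in Fancd2-/- pairs 2 and 3.

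Subgroup by subgroup, the Fancd2-/- pairs differed from each other. Mitotic entry genes had pair medians of 0.17, -0.47 and -0.47, and condensin genes 0.10, 0.20 and 0.20. Kinesins had medians of -0.00, -0.30 and -0.28, with Kif11, the bipolar spindle motor, among the genes above 0 in each pair. In wild-type pairs the subgroup medians lay between 0.36 and 0.62 in pair 1, between 0.02 and 0.16 in pair 2, and between 0.245 and 0.37 in pair 3.

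The genotype by oxymetholone interaction tests the difference between the oxymetholone effects in the Fancd2-/- and the wild-type mice. The median interaction of the 53 genes was -0.42 on the log2 scale and 50 of 53 were below 0, beside a median of 0.00 and 50.9% above 0 over all genes. By edgeR 0 of the 53 were called, with 31 at an unadjusted p under 0.05 beside 3.45% of all genes, and DESeq2 and limma voom called 0. Kif2c was first by p (-0.75 ± 0.16), then Ube2c (-0.76 ± 0.18) and Arhgap19 (-0.65 ± 0.17), each with an edgeR adjusted p of 0.953. The genes above 0 were Sgol2 (0.10), Smc2 (0.09) and Casc5 (0.06), each of them below its SE. Without Fancd2-/- pair 3 the median was -0.41, with 48 of 53 below 0.

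Transcript length ran through these comparisons. In the Fancd2-/- against wild-type comparison on placebo the 18 genes with transcripts over 4 kb had a median of 0.45 and the 18 under 2.5 kb a median of 0.76, beside -0.13 for all genes over 4 kb and 0.10 for all genes under 2.5 kb. Without Fancd2-/- placebo replicate 3 the members' medians were 0.49 and 0.59, and with the length trend of each library removed they were 0.61 and 0.71, with 22 members (1.33% of all genes) called. In Fancd2-/- mice on oxymetholone against placebo the genes over 4 kb had a median of 0.05 and those under 2.5 kb a median of -0.26, beside 0.12 and -0.09 for all genes of these lengths. Without pair 3 these medians were 0.01 and -0.14, and with the trend removed -0.03 and -0.20. In wild-type mice the corresponding medians of members, 0.36 and 0.29, were close, and those for all genes were 0.01 and -0.02.

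As a description across genes, which are not independent and share the libraries, Pearson's r between log2 change and log2 length over the 53 genes was -0.665 for Fancd2 loss on placebo, 0.61 for oxymetholone in Fancd2-/- mice and 0.295 for oxymetholone in wild-type mice. Over 13156 genes it was -0.195, 0.18 and 0.05. Without Fancd2-/- placebo replicate 3, or pair 3, the members' values were -0.36 for Fancd2 loss and 0.36 for oxymetholone in Fancd2-/- mice. The oxymetholone differences of Cenpf, Mki67 and Casc5 and the absence of a call for the same genes with Fancd2 loss both concern long transcripts, of 11093, 10075 and 6525 bases, and the part of the length trend in them was not tested beyond these values.

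**Figure D4:**
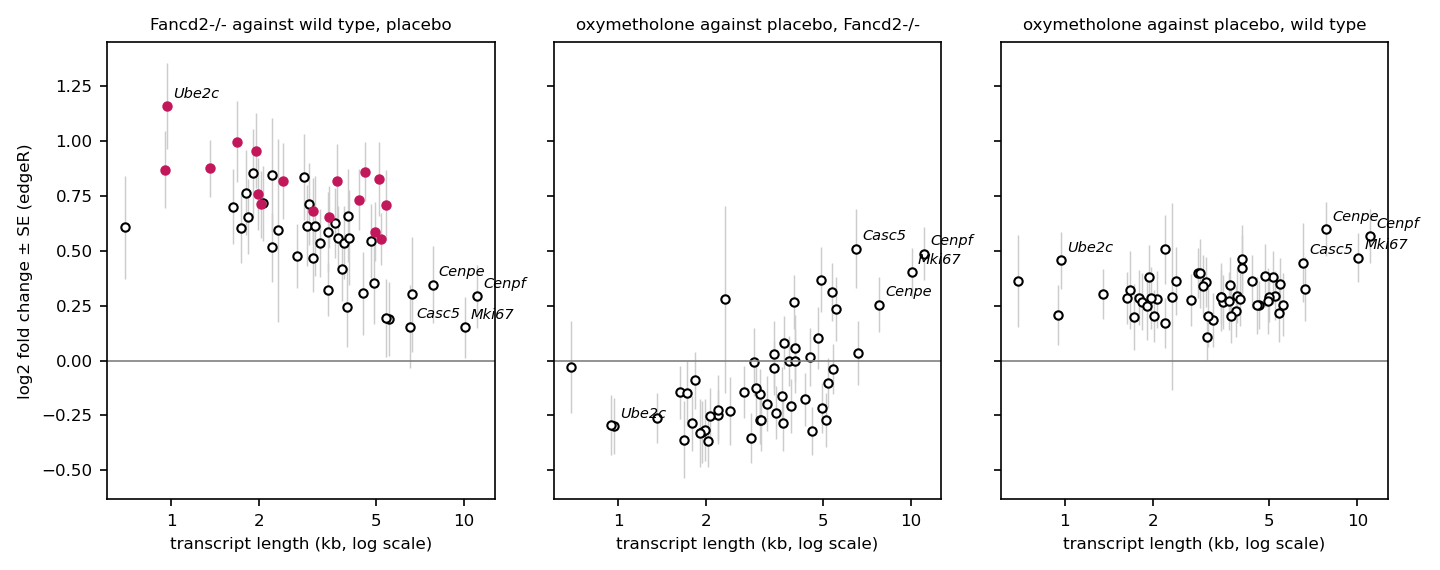
Log2 fold change ± SE from edgeR against transcript length in kb (log scale) for 53 genes in 3 KSL comparisons; filled dots have an adjusted p under 0.05. In the first panel the change is lower for long transcripts (Cenpf 0.29) than for short ones (Ube2c 1.16), in the middle panel 11 of the 18 genes over 4 kb are above 0, and in the last panel the 53 genes are above 0.

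Erythroblasts carried far more of these transcripts than KSL cells did. In placebo-fed wild-type mice 53 of 53 genes rose in erythroblasts against KSL cells in the edgeR test, in which 37.2% of 12538 genes rose, and the median log2 change was 4.13, beside -0.67 for all genes. The rise ranged from 2.44 for Kif20b to 8.24 ± 0.14 for Kifc1 (edgeR adjusted p = 1.07e-15). Kifc1 was at 432.5, 409 and 479 CPM in placebo erythroblasts, against 1.37, 1.45 and 1.66 CPM in wild-type placebo KSL cells. It was the lowest of the 53 genes in KSL cells and had the largest ratio between the populations, 294.8. In wild-type whole marrow Kifc1 was at 7.05 CPM, and placebo erythroblasts stood 62.45 times above it, beside a module median of 4.22. Summed erythroid markers were at 62650 CPM in that marrow and at 164200 to 188700 CPM in placebo erythroblasts. Whether a counting difference between the libraries has a part in the Kifc1 values was not tested. Cdc25b, a phosphatase that activates CDK1 at the start of mitosis, was at 2977, 2684 and 3099.8 CPM in placebo erythroblasts, against 28.9, 39.3 and 33.9 CPM in placebo KSL cells, a change of 6.44 ± 0.16 (edgeR adjusted p = 1.56e-14). Both genes were far above their KSL levels in each library, with no overlap, as were the other 51 genes, beside 37.5% of all genes.

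Subgroup medians in that comparison lay between 3.12 for the checkpoint and 4.62 for mitotic entry. Arhgap19 (5.47), Anln (5.27, anillin of the cleavage furrow), Ube2c (5.14) and Cks2 (5.12, a CDK-binding subunit) followed Kifc1, Mki67 (6.52) and Cdc25b in size. The scale of this contrast depended on normalisation: with total counts in place of TMM factors the medians were 2.72 for the 53 genes and -2.08 for all genes, and the 53 genes remained called. Populations also differed in pooling, with 1 mouse per erythroblast library and 5 per KSL library. Of the 78 other mitosis genes 69 rose and 5 fell, Fam64a (-8.11) and Cep55 (-7.12) by the most. Of the 48 DNA replication genes 47 rose, at a median of 2.26.

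In erythroblasts oxymetholone made little difference to the module. By edgeR, DESeq2 and limma voom 0 of the 53 genes were called, with 0 at an unadjusted p under 0.05 beside 1.27% of 9694 genes, and the median log2 difference was 0.06, with 51 genes above 0. Kif2c was first by p, at 308.5, 289.5 and 275 CPM on oxymetholone, against 266, 266 and 270.5 CPM on placebo, and the difference of 0.10 ± 0.06 did not pass (edgeR adjusted p = 1). Diets did not overlap for 5 genes, each of them higher on oxymetholone (Cdc25c, Cenpa, Kif2c, Prc1 and Anln), beside 4.1% of all genes. The difference of the oxymetholone effect between erythroblasts and wild-type KSL cells had a median of -0.22, with 53 of 53 genes below 0. It was -0.12 without wild-type placebo KSL replicate 1 and -0.336 without replicate 2 of that group. By edgeR 0 of them were called, beside 0.0155% of all genes, with 6 at an unadjusted p under 0.05 (2.45% of all genes), and 0 were called by DESeq2 and limma voom. Tpx2 (-0.33 ± 0.12), Plk1 (-0.42 ± 0.17) and Arhgap19 (-0.34 ± 0.14) were first by p.

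Most genes varied little among the 6 erythroblast libraries, with a median ratio of highest to lowest of 1.196, but the 3 longest transcripts, Cenpf, Mki67 and Cenpe, had ratios of 2.76, 2.43 and 2.29. Other long ones differed among themselves, with ratios of 1.80 for Kif20b, 1.72 for Casc5, 1.58 for Sgol2 and 1.40 for Smc2. Some shorter ones varied as much, with ratios of 1.65 for Smc4 (3983 bases), 1.465 for Bub1 (3421 bases) and 1.397 for Ndc80 (2201 bases). Espl1 and Anln varied little, with ratios of 1.17 and 1.09. Mki67 was at 9381, 17578 and 17984 CPM on oxymetholone, against 8119, 8948 and 19690 CPM on placebo. Cenpf was at 700.5, 1428 and 1389.7 CPM on oxymetholone, against 562, 622 and 1549 CPM on placebo. In both genes oxymetholone replicates 2 and 3 and placebo replicate 3 were high and the other 3 libraries low, so the split ran across the diets. These 3 libraries also had positive slopes of the members on length, 0.09, 0.12 and 0.15 log2 units per doubling, and the other 3 had negative ones, between -0.09 and -0.14. Over 9631 genes the slopes were flatter, at -0.001, 0.020 and 0.035 in the former and between -0.013 and -0.024 in the latter.

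Whole bone marrow lay between the sorted populations. For 53 of 53 genes the order of levels was erythroblasts, wild-type whole marrow, then wild-type placebo KSL cells. Whole marrow stood 1.61 to 14.5 times above KSL cells, with a median of 3.48, and erythroblasts 2.09 to 62.5 times above whole marrow, with a median of 4.22. Fancd2-/- and wild-type marrow differed little. With 1 library per genotype there is no test, and 0 of the 53 genes were past 1.5-fold in either direction, beside 0.828% of 11951 genes higher and 0.669% lower. The ratio of Fancd2-/- to wild-type CPM had a median of 0.984 and ranged from 0.843 to 1.08. Cks2 was lowest, at 10.2 CPM in Fancd2-/- and 12.1 CPM in wild-type marrow, a ratio of 0.843 with an exact 95% binomial interval of 0.771 to 0.923, which covers counting error only. Top2a was at 809 CPM in Fancd2-/- and 807 CPM in wild-type marrow. For 7 genes the interval lay above 1 and for 21 below 1, also at ratios near 1 such as 0.978 for Birc5. The share of all genes was not computed, so these counts are not read as a trait of the module.

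**Figure D5:**
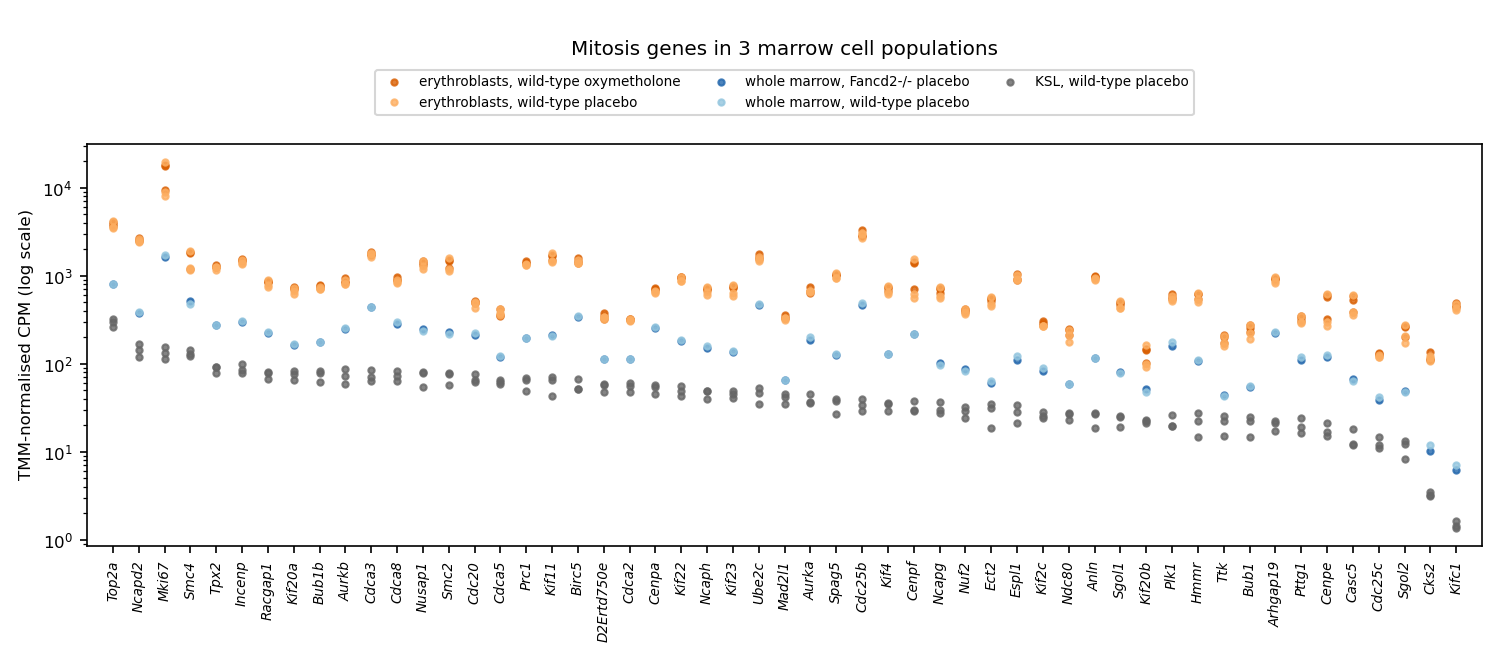
TMM-normalised CPM (log scale) of the 53 genes in 6 wild-type erythroblast libraries, 2 whole marrow libraries and 3 wild-type placebo KSL libraries, ordered by the KSL level; each dot is a library. For each gene erythroblasts lie above whole marrow and whole marrow above KSL cells, and the widest gap is that of Kifc1.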

How the data were processed

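RNA was sequenced from KSL cells (12 libraries), erythroblasts (6) and whole marrow (2), as 51-base reads from TruSeq libraries. Per the labels, the authors mapped reads with Bowtie to mm9 and used edgeR; no source used here gives versions, the counting strand or the handling of reads with more than 1 match. The deposited values are counts per RefSeq transcript (26005 rows), used as deposited, and the row with the largest total was kept for each of 20377 symbols. The authors' normalised matrix was not used. The column of Fancd2-/- placebo KSL replicate 1 differs by a digit from the sample's title.

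Tests were fitted in edgeR 4.0.16 under R 4.3.3, by robust quasi-likelihood after filterByExpr and TMM, and p-values were adjusted by Benjamini-Hochberg over every tested gene, with calls at an adjusted p under 0.05. The 53 members passed the filter in each comparison. Oxymetholone in KSL cells was fitted over the 12 KSL libraries with the pair as a block. The pairs come from the design text, which ties each to a shared flow cytometer setting. The correlation of partners' deviations was 0.134, -0.061 and 0.214 in Fancd2-/- and 0.114, 0.258 and 0.131 in wild-type pairs. The oxymetholone library's largest correlation with a placebo library of another pair was -0.003, 0.263 and 0.051 in Fancd2-/- mice. In wild-type mice it was 0.091, -0.008 and -0.058. For Fancd2-/- pair 2 it was thus above the partner's value. Genotype, constant within a pair, was tested between group means. The p-values measure the spread between pools of mice, or between mice for erythroblasts. Whole marrow ratios have exact 95% binomial intervals. Depth was 10.8 to 121 M reads per library, and intervals cover counting error only. CPM in the text use TMM over 20 libraries, and pair ratios a pseudocount of 0.5 CPM.

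Transcript lengths are those of the GENCODE vM1 transcript of the same symbol nearest to the RefSeq row (98.7% of symbols, 53 of 53 members), and the ends differ by up to 1484 bases (D2Ertd750e). Promoters are from RefSeq, GRCm38.p6. Cdc20, Kif20a, Ncapg and Nusap1 overlap another gene, whose reads may be shared. The members and gene lists were chosen with earlier results of these data known. Named are called members (the 10 smallest p), otherwise the 3 smallest p per direction, and the member of each subgroup highest per kilobase. Others are named to complete a subgroup or after their values were seen. Alternatives were median-of-ratios factors, no filter, DESeq2 1.42.0, limma voom with quality weights (limma 3.58.1), fewer libraries, no block and removal of each library's length trend by lowess. The fits were tested on simulated data.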

Additional observations from a re-analysis of the deposited data

How the results depend on the processing

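With Fancd2 loss on placebo, 17 members were called in the reported fit (1.28% of all genes), 37 by DESeq2 (6.15%), 40 by limma voom (10.7%) and 0 with the 6 placebo libraries alone (fewer samples, 0.0848%), and leaving out 1 library gave 1 to 25 (19 to 236 of all genes). The 17 genes were among those called by DESeq2 and by voom. The median stayed at 0.51 to 0.70 with 1 library left out. The cause of the spread between tools was not tested. For oxymetholone in wild-type KSL cells limma voom called 3 members (0.686% of all genes) where edgeR and DESeq2 called 0 (0 and 4 of all genes). The median of Fancd2 loss on oxymetholone was 0.164 to 0.243 with 1 library left out, the highest without Fancd2-/- oxymetholone replicate 1, and that of oxymetholone in Fancd2-/- cells -0.182 to -0.0884. The median for erythroblasts against KSL cells was 4.57 with the length trend removed and 2.72 with total counts, an alternative chosen after seeing the data, as were the values by length without Fancd2-/- placebo replicate 3 or pair 3.

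Values near 0 changed sign. With the length trend removed, the interaction was -0.00784 for Smc2 and -0.0623 for Casc5. With 1 pair left out it ranged from -0.145 to 0.318 for Casc5, from -0.0392 to 0.264 for Smc2 and from -0.0857 to 0.265 for Sgol2. With 1 library left out, Casc5 with Fancd2 loss on placebo ranged from -0.00444 to 0.389. Kif23 with Fancd2 loss on oxymetholone was 0.00623 with median-of-ratios factors, 0.00751 by DESeq2 and 0.0204 with the length trend removed, and ranged from -0.0295 to 0.0223 with 1 library left out. In erythroblasts Espl1 ranged from -0.0906 to 0.0234 and Cdca5 from -0.14 to 0.00731 with 1 library left out. Without the replicate block 0 members were called for oxymetholone in Fancd2-/- or wild-type KSL cells or for the interaction, with medians of -0.148, 0.286 and -0.412, and the pairing changed no call of a member. Total counts in whole marrow left 0 members past 1.5-fold, and pseudocounts of 0.1 and 2 CPM left the counts of genes moving one way in 3 of 3 pairs as they were. With 3 libraries per group, single calls depend on each library.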
